A study of Hebeloma cylindrosporum with 4 samples.

Results

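The set described here holds 67 of 15382 gene models of the ectomycorrhizal fungus Hebeloma cylindrosporum that were very low or without reads in free-living mycelium and higher in ectomycorrhiza. Members had under 1 RPKM (a read count scaled for transcript length and sequencing depth) in both mycelium libraries and 5 RPKM or more in both ectomycorrhiza libraries. At least 50% of their reads, summed over the libraries, also had to match no other gene model, a condition that removed 0 candidates. The level in the 2 tissues chose the members, so the contrast between tissues is given below as a description, and its test, reported once for completeness, supports nothing. Free-living mycelium of the wild-type TV98 IV3 strain, which the labels call diploid, was grown in pure culture for 6 days on a Melin-Norkrans agar with 0.5 g per litre of fructose, under a cellophane sheet. The ectomycorrhizas were formed with Pinus pinaster, inoculated as 20-day-old seedlings with mycelial homogenate and kept in a greenhouse in sterilized peat and clay soil with 80% organic matter. The growth notes name this 1 strain for the whole work, and the ectomycorrhiza samples' own labels do not repeat it. Each tissue had 2 libraries, named as biological replicates, and nothing says which plants, pots or cultures they came from.

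An ectomycorrhiza is a short root wrapped in a mantle of hyphae, from which a network of hyphae, the Hartig net, grows between the outer root cells. Sugar from the tree and mineral nutrients from the soil are exchanged there. In other ectomycorrhizal fungi, genes that come on in the root include small secreted proteins that act as effectors, nutrient transporters and enzymes that loosen plant cell walls. The tables identify gene models by protein ID and transcript length only, and no annotation was used, so it is not known here which of these classes the members belong to. The tissue labels were not checked against marker genes for the same reason. Only the first 2 members are named by ID. The others are given by rank, counted from the highest mean RPKM in ectomycorrhiza, and by transcript length.

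Mycelium replicates 1 and 2 held 17774509 and 19341938 gene reads, and ectomycorrhiza replicates 1 and 2 held 4748150 and 3967725. For a transcript of 1000 bp, the limit of 1 RPKM stood at 17.8 and 19.3 reads in the mycelium libraries, and the limit of 5 RPKM at 23.7 and 19.8 reads in the ectomycorrhiza libraries. Both limits of the rule thus rested on similar numbers of reads. Levels under 1 RPKM could be graded only coarsely in mycelium, where members had medians of 5 and 6 reads. Of the 56 members with reads in both mycelium libraries, 16 were over 2 times apart in RPKM. RPKM is scaled by total gene reads alone. TMM scaling, which uses the bulk of the gene models, multiplied every fold over the pooled reads by 1.94. Presence of pine, growth medium and growth site differ together between the tissues and cannot be told apart. Nor can more RNA per hypha be told apart from more hyphae of one kind, since whole tissues were extracted.

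Few genes that were silent in mycelium came on in ectomycorrhiza at this level. Of 3586 gene models under 1 RPKM in both mycelium libraries, 67 (1.87%) reached the ectomycorrhiza limit, while 3361 were under 1 RPKM in both ectomycorrhiza libraries too, and 1872 had no read in any library. Seen from the other side, 6965 gene models had 5 RPKM or more in both ectomycorrhiza libraries, and the members were 0.962% of them. The same limits with the tissues exchanged picked 323 gene models, on in mycelium and under 1 RPKM in ectomycorrhiza. The limit of 1 RPKM rested on fewer reads there. In a transcript of 1000 bp, 1 read was 0.211 and 0.252 RPKM in the ectomycorrhiza libraries, against 0.0563 and 0.0517 RPKM in mycelium. Of those 323, 40 had 0 reads in both ectomycorrhiza libraries and 10 averaged 100 RPKM or more in mycelium, with a median of 9.52 RPKM over the set. The ratio of the sizes depended on scaling: with RPKM computed on TMM-scaled library sizes, 96 gene models came on in ectomycorrhiza and 139 were silent there.

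**Figure D1:**
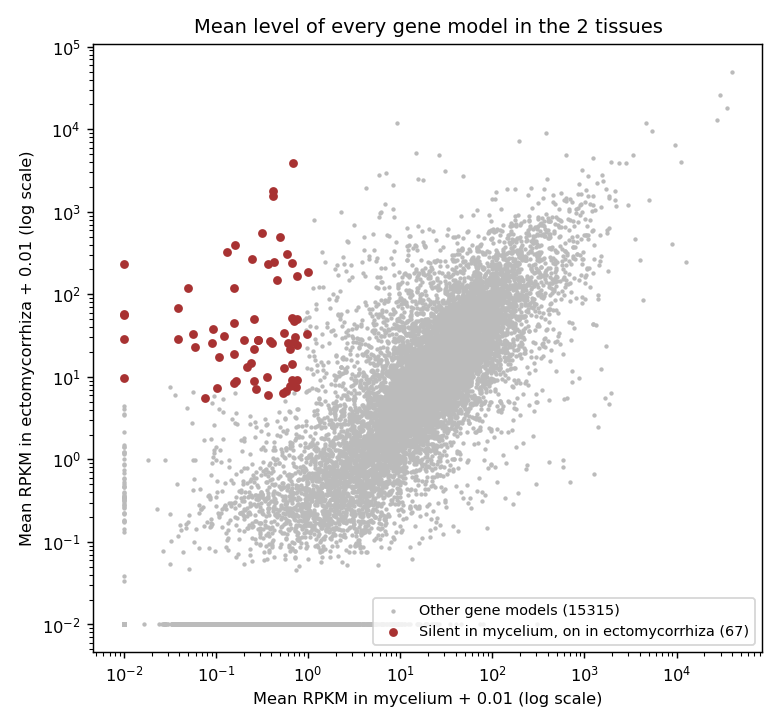
Mean RPKM over 2 libraries, plus 0.01, of every gene model in mycelium (x axis) and in ectomycorrhiza (y axis), both on log scales. The 67 members (red) form the upper left block that the rule cuts out, and 3 of them stand above 1000 RPKM in ectomycorrhiza.

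At the top of the set stood 3 gene models with mean levels above 1000 RPKM. Gene model 428551, with a transcript of 871 bp, had 23083 and 7420 reads in the ectomycorrhiza libraries, against 11 in each mycelium library. Its level was 0.711 and 0.653 RPKM in mycelium and 5581 and 2147 RPKM in ectomycorrhiza. Those values placed it 13th and 31st among all gene models of the ectomycorrhiza libraries, and its replicates were 2.60-fold apart. Mean RPKM went from 0.682 ± 0.0407 to 3864 ± 2429 (SD, n = 2), and pooled reads were 5904-fold higher (95% interval 3899 to 9423, which like the other intervals here covers counting error only). The log2 fold change fitted by edgeR on TMM-scaled counts was 13.43 (SE 0.85). It was 12.48 without ectomycorrhiza replicate 1 and 14.00 without ectomycorrhiza replicate 2.

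Gene model 12700, with a transcript of 663 bp, had 6 and 4 reads in mycelium against 6696 and 3695 in ectomycorrhiza. In RPKM it went from 0.509 and 0.312 to 2127 and 1405, which was 39th and 56th in the ectomycorrhiza libraries. The replicates lay closer together than those of 428551, and the fold on pooled reads was 4425 (95% interval 2405 to 9230), with a fitted log2 fold change of 12.99 (SE 0.54). The third-ranked member, of 462 bp, was at 0.244 and 0.560 RPKM in mycelium and at 1902 and 1164 RPKM in ectomycorrhiza, from 2 and 5 reads against 4172 and 2133. All 3 were among the 100 highest gene models of each ectomycorrhiza library, and no other member was.

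The next 15 members, ranks 4 to 18, averaged 100 to 1000 RPKM in ectomycorrhiza. Their lowest, median and highest values were 74.1, 290.4 and 819 RPKM in replicate 1 and 109.8, 209 and 526 RPKM in replicate 2. In mycelium the medians of the same 15 were 0.355 and 0.294 RPKM. Depth in ectomycorrhiza was ample for this class, with at least 393 reads in replicate 1 and 250 in replicate 2. The member at rank 4 (879 bp) was the least even among the first 6, with 819 and 283 RPKM in ectomycorrhiza against 0.320 and 0.294 in mycelium. Rank 5 (1587 bp) was nearly equal between replicates, at 457 and 526 RPKM, from 0.319 and 0.652 RPKM in mycelium. Rank 6 (1611 bp) had 436 and 348 RPKM, from 0.140 and 0.160 RPKM. Ranks 5 and 6 were long for the set, and their summed reads in ectomycorrhiza, 6758 and 5560, were above the 4407 of rank 4, whose mean RPKM was higher. Pooled folds in this class ran from 194 to 2870, with a median of 762, the 1 member at 0 mycelium reads being set to its bound.

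The most populated class was that of 34 members, ranks 19 to 52, at 10 to under 100 RPKM on average. Their medians were 33.7 and 23.2 RPKM in the ectomycorrhiza libraries and 0.212 and 0.302 RPKM in mycelium. Of these 34, 3 had no mycelium read at all. The remaining 15 members, ranks 53 to 67, averaged 5 to under 10 RPKM. They rested on few reads, with medians of 31 and 27 reads per gene model in ectomycorrhiza and a lowest value of 11 and 7 reads, and the pooled folds of those with a mycelium read ran from 10.1 to 78.8. The median of the mean RPKM was 28.4 for members and 25.5 for the other 6898 gene models on in ectomycorrhiza. Members made up 1.39% of the gene models at 5 to under 10 RPKM, 0.722% at 10 to under 100, 1.38% at 100 to under 1000 and 3.41% (3 of 88) at 1000 RPKM or more.

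**Figure D2:**
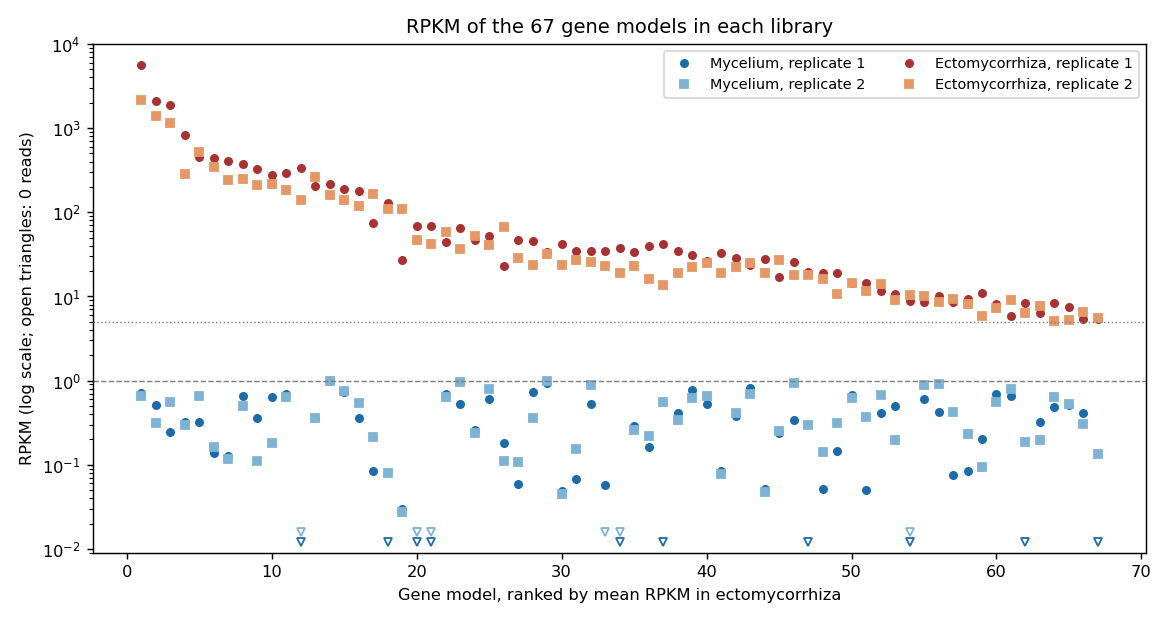
RPKM of each of the 67 members in each of the 4 libraries (log scale), ordered by mean RPKM in ectomycorrhiza, with open triangles at the bottom for libraries with 0 reads. The dashed line is the limit of 1 RPKM in mycelium and the dotted line that of 5 RPKM in ectomycorrhiza. Ectomycorrhiza levels fall from 5581 RPKM at rank 1 to about the limit at rank 67, while mycelium levels show no such slope.

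Most members were low in mycelium rather than absent. Reads were found in both mycelium libraries for 56 of the 67, in 1 library for 6 and in neither for 5. Over both libraries, 38 members had 10 or more mycelium reads, 13 had 4 to 9 and 11 had 1 to 3. The median level was 0.320 RPKM in replicate 1 and 0.310 RPKM in replicate 2. The members' order was broadly the same in the mycelium libraries, with Spearman's rho of 0.765 across the 67, against 0.928 between the ectomycorrhiza libraries. Between mean mycelium level and mean ectomycorrhiza level rho was 0.0178, so the order of members by RPKM in mycelium bore little relation to their order by RPKM in ectomycorrhiza. These correlations are across gene models within the same libraries, which share depth and transcript length, and the rule limits the range on both axes.

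Of the 5 members with no mycelium read, all had transcripts of 744 bp or shorter, and 4 of them ranked 34 or higher. At the same RPKM a shorter transcript holds fewer reads, so a count of 0 is reached more easily there. Rank 12 (456 bp) had 718 and 250 reads in ectomycorrhiza, or 332 and 138 RPKM, and rank 20 (468 bp) had 154 and 87 reads, or 69.3 and 46.9 RPKM. Rank 21 (288 bp) had 95 and 48 reads (69.5 and 42.0 RPKM), and rank 34 (636 bp) had 114 and 48 reads (37.8 and 19.0 RPKM). The fifth, rank 54 (744 bp), was near the limit with 31 reads in each library, or 8.78 and 10.5 RPKM. With 3 reads over both mycelium libraries as the limit that a count of 0 allows, these 5 were at least 1374-fold, 342-fold, 203-fold, 230-fold and 88.0-fold higher in ectomycorrhiza. Of rank 21, 11.2% of the reads were shared with another gene model, so its level is less certain than that of the others.

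Among the 11 members with 1 to 3 mycelium reads, the fold is poorly bounded above. For rank 18 (645 bp), 0 and 1 mycelium reads stood against 393 and 281 ectomycorrhiza reads, which gave a pooled fold of 2870 with a 95% interval of 513 to 113534. Rank 19 (1875 bp), with 1 and 1 reads, had a fold of 2238 and an interval of 618 to 18503. Across the 62 members with a mycelium read, the pooled fold ran from 10.1 to 5904 with a median of 93.5. Its lower 95% bound was never under 6.49 and was at least 100 for 25 of them. With the 5 others at their bounds, the median over all 67 was 105-fold, and 35 members were at 100-fold or more. The limits of the rule alone put every pooled fold above 5, and the intervals take no account of that selection.

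All 67 members passed the filter on low counts and were tested by edgeR's quasi-likelihood test across 11471 gene models, and all 67 were higher in ectomycorrhiza at a Benjamini-Hochberg adjusted p under 0.05. Over all gene models tested, 24.3% were called higher. The rule selected on this same contrast, so the count follows from the choice of members and is read no further. The fitted log2 fold changes ran from 4.28 to 14.11 with a median of 7.80, beside a median of -0.20 over all gene models tested. The highest, 14.11, was that of rank 12, which had 0 mycelium reads. Its size therefore depends on how the fit treats a count of 0, and the reads give only a lower bound.

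Several gene models stood close to the limits on either side. Nearest inside the ectomycorrhiza limit, a member of 1045 bp had 8.26 and 5.06 RPKM there (41 and 21 reads). Nearest outside it, a gene model of 1188 bp had 4.43 and 10.6 RPKM (25 and 50 reads) and only 0 and 1 reads in mycelium. At the mycelium limit, rank 14 (2214 bp) was inside with 0.991 and 0.981 RPKM, and a gene model of 1878 bp was outside with 0.839 and 1.02 RPKM. Both were well covered in ectomycorrhiza, at 216 and 161 RPKM and at 49.9 and 54.6 RPKM. A further 15 silent gene models reached 5 RPKM in ectomycorrhiza replicate 1 but not in replicate 2, and 3 did so in replicate 2 but not in replicate 1. On the mycelium side, 10 gene models missed the set through replicate 2 alone and 11 through replicate 1 alone.

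Of all mycelium reads, the members together took 0.00253% (exact 95% binomial bounds 0.00230 and 0.00277) in replicate 1 and 0.00292% (0.00268 and 0.00317) in replicate 2. In ectomycorrhiza they took 1.37% (bounds 1.36 and 1.38) and 0.881% (0.872 and 0.890). The intervals cover counting error within a library and not the spread between samples, and the mean share in ectomycorrhiza was 1.12% ± 0.345 (SD, n = 2). A single member, 428551, supplied 35.5% of the set's reads in replicate 1 and 21.2% in replicate 2. Without it the shares were 0.883% and 0.694%. The first 3 members held 52.2% and 37.9% of the set's reads, and the first 10 held 74.1% and 63.1%.

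**Figure D3:**
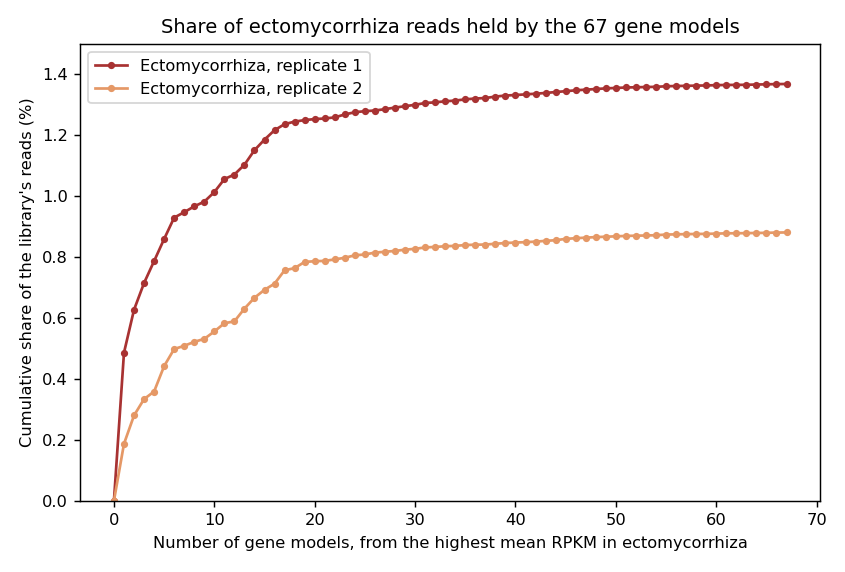
Cumulative share of the reads of each ectomycorrhiza library (y axis, percent) held by the members, added in order of mean RPKM (x axis, number of gene models). The curves end at 1.37% in replicate 1 and 0.881% in replicate 2, and the first 10 members bring most of each total.

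Members differed between the ectomycorrhiza replicates mostly in one direction. In TMM-normalised CPM (read counts scaled to a common library size), 53 of 67 members were higher in replicate 1, with a median log2 ratio of replicate 1 over replicate 2 of 0.54 and an SD across members of 0.640. Among the other 6898 gene models on in ectomycorrhiza, 64.4% were higher in replicate 1, with a median of 0.22 and an SD of 0.638. Much of the libraries' difference ran along transcript length, and members were short. In the others, Spearman's rho between length and log2 ratio was -0.621, and in the members -0.289, across gene models that share these 2 libraries. Under 600 bp the median log2 ratio was 0.83 for 12 members and 0.75 for 451 others. At 600 to under 1200 bp it was 0.51 for 38 members and 0.53 for 2190 others, and at 1200 to under 1800 bp 0.34 for 12 members and 0.24 for 2111 others. At 1800 bp or more it was -0.10 for 5 members and -0.29 for 2146 others. Members thus lay close to others of their length, and the part of length in the shift of the whole set was not tested.

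Over 2-fold differences between the ectomycorrhiza replicates were found for 12 members, 9 higher in replicate 1 and 3 higher in replicate 2. That was 17.9% of the members, against 11.8% of the other gene models on in ectomycorrhiza (459 higher in replicate 1 and 352 in replicate 2). Among the 9 were ranks 1 and 4, with log2 ratios of 1.52 and 1.68, and the highest was rank 37 (372 bp), at 41.9 and 13.6 RPKM with a log2 ratio of 1.77. The 3 in the opposite direction were long or of middle length. Rank 17 (2676 bp, the longest member) had 74.1 and 164 RPKM in ectomycorrhiza and 0.0841 and 0.213 RPKM in mycelium. Rank 19 (1875 bp) had 27.1 and 109 RPKM, from 0.0300 and 0.0276 RPKM. Rank 26 (924 bp) had 23.2 and 67.1 RPKM, from 0.183 and 0.112 RPKM. Rank 19 was the most uneven member, with a log2 ratio of -1.86, and rank 26, at -1.38, lay opposite to the 0.51 that was the median for members of 600 to under 1200 bp. With 2 libraries a group, which replicate is typical of the tissue cannot be said for these 12.

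**Figure D4:**
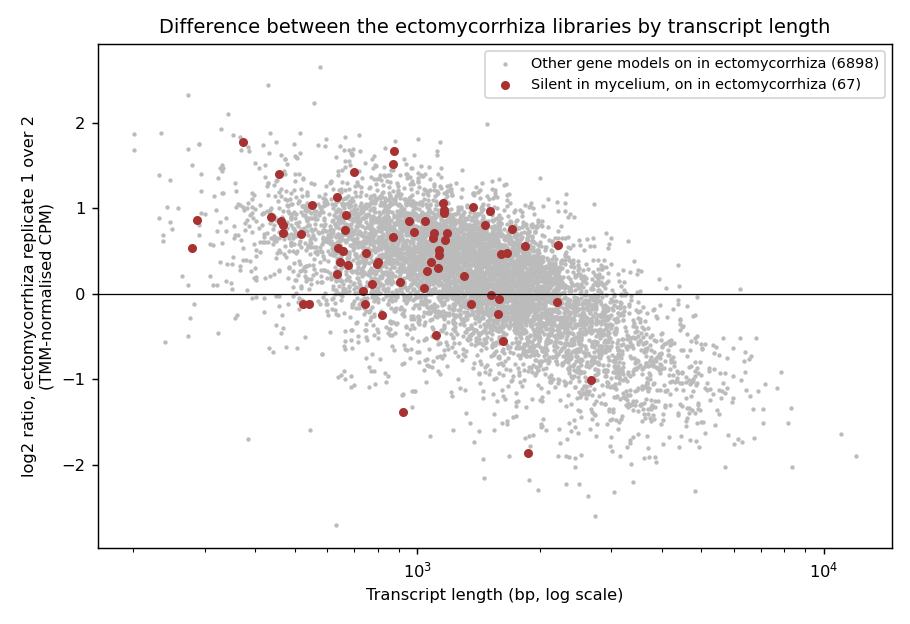
Log2 ratio of TMM-normalised CPM in ectomycorrhiza replicate 1 over replicate 2 (y axis) against transcript length in bp (x axis, log scale) for the 67 members (red) and the other 6898 gene models on in ectomycorrhiza (grey). Members also tend downward with length, less closely than the others (Spearman's rho -0.289 against -0.621). Ranks 19 (-1.86) and 26 (-1.38) are the lowest red points.

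Length itself, which the rule used only as the divisor in RPKM, was intermediate. The median transcript was 954 bp in the members (279 to 2676 bp), 545 bp in all 3586 gene models silent in mycelium, 1108 bp in all gene models and 1410 bp in the others on in ectomycorrhiza. Members under 1200 bp numbered 50 (74.6%), against 84.4% of silent gene models and 38.3% of the others on in ectomycorrhiza. Within the set, length and level were nearly unrelated, with Spearman's rho of 0.0785 between length and mean ectomycorrhiza RPKM across the 67. Transcript lengths that are a multiple of 3, as models made of coding sequence alone have, were found for 55 members (82.1%). The share was 69.9% among silent gene models, 57.8% among all and 52.4% among the others on in ectomycorrhiza. The 55 had a median length of 879 bp and a median of the mean ectomycorrhiza RPKM of 28.3, and the other 12 had 1122 bp and 31.4 RPKM. All 5 members with no mycelium read were among the 55. A multiple of 3 can also occur in models that hold more than coding sequence, so length does not show which kind a member is.

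Few members shared reads with another fungal gene model. Of the 67, 63 had no read shared with another gene model, and 4 (5.97%) had some, against 9.51% of the others on in ectomycorrhiza. Sharing was counted over all 4 libraries, and the rule left members few mycelium reads in which it could show. The difference was not tested. Besides rank 21, sharing was largest at rank 61 (1114 bp), with 10.9% of its reads, followed by rank 32 (640 bp) with 1.60% and rank 5 with 0.0147%. None of the first 4 members shared a read. Strand use in counting is not given in the sources used here, so reads of overlapping or antisense gene models cannot be told apart from the members' own. How pine reads were kept out of the fungal counts is likewise not given there.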

How the data were processed

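Total RNA of 2 mycelium and 2 ectomycorrhiza libraries was sequenced as 100 bp Illumina HiSeq 2000 reads, per the series design text. The authors deposited, per the file headers, raw counts of total and of unique gene reads and RPKM values for 15382 gene models of the Joint Genome Institute's Hebcy2 annotation. Recomputing RPKM from total gene reads, length and each library's sum of gene reads gave the deposited values within 5e-06. Transcript length in bp was also taken from the deposited tables. Not given in the sources used here are the aligner, the counting tool, strand use and how pine reads were kept apart.

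Members were chosen by the rule above, and the members and all lists were chosen with earlier results of these data known. Total gene reads of all gene models were fitted with edgeR 4.0.16 (R 4.3.3): filterByExpr by group, TMM scaling, then the robust quasi-likelihood test over the 4 libraries with a group term alone, and Benjamini-Hochberg adjustment over 11471 gene models. SE is the fitted log2 fold change divided by the square root of F. Pooled folds compare reads per gene read, summed over each tissue's libraries, with exact binomial 95% intervals. These, and the limit of 3 reads for a count of 0, cover counting error only, since reads carry no molecular identifiers. P-values measure only how far these libraries spread, which may be technical. An exact two-sided permutation test of 2 against 2 cannot go below p = 0.333, so single values carry none. The fit was tested on simulated data with known changes. The rule for named gene models took the 2 members with the highest mean ectomycorrhiza RPKM, since no table pairs IDs with products; gene lists by product text could not be built, and members given by rank were picked after their values were seen. Alternatives were other scalings, filters and limits, unique reads, DESeq2 1.42.0, a replicate block and fits without each library in turn.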

Additional observations from a re-analysis of the deposited data

How the results depend on the processing

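Under the alternatives, the number of members was 52 to 99 for RPKM on TMM-scaled sizes (96, the 67 among them), unique-read RPKM (66), ectomycorrhiza limits of 2 (99) and 10 RPKM (52) and no condition on unique reads (67). It was 38 with a mycelium limit of 0.5 RPKM and 112 with 2 RPKM. Leaving 1 library out of the rule gave 70 to 82 members. The reverse rule was less stable. It gave 139 gene models with TMM-scaled RPKM, 139 and 736 with low limits of 0.5 and 2 RPKM, 848 and 131 with high limits of 2 and 10 RPKM, against 323 as reported. Leaving out 1 library gave 370 to 518, the highest without ectomycorrhiza replicate 1 (518) and replicate 2 (511). Of the members, 66 or 67 were past the threshold in every alternative, and the one missing was each time not tested after the stricter filter or with 1 ectomycorrhiza library. No label says what a shared replicate number stands for, and deviations from the group means correlated at r = -0.213 between same-numbered libraries. With the replicate block 67 members were past the threshold, and with the numbers crossed, added after seeing the data, 67 as well. The share of ectomycorrhiza reads was 1.56% of summed RPKM in place of 1.12% of reads. Median transcript length was 1050 bp with an ectomycorrhiza limit of 10 RPKM, 1036.5 bp with TMM-scaled RPKM and 872 to 969 bp with 1 library left out. The median log2 ratio between ectomycorrhiza replicates was 0.39 with total counts, 0.51 with unique reads and 0.47 over members by TMM-scaled RPKM. Log2 fold changes were 12.44 to 14.00 for 428551 and 12.02 to 13.33 for 12700 over 12 alternatives each, and both kept their direction and call, an outcome largely fixed by how they were chosen. Ectomycorrhiza depth limits the lowest members, 5 of which had under 20 reads in a library.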
